A study of Mus musculus with 2 samples.

Results

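Tcf7l2 and Nkx6-2, 2 of the 28692 genes of a single-cell count matrix, were described across the cell classes of differentiating mouse neural stem cell cultures. Each symbol matched 1 row of the matrix. They were picked from the factors known from the oligodendrocyte lineage because their levels were higher in astrocyte-like cells of these data. Their astrocyte-like levels are therefore the ground on which they were chosen, and are given as a description with no test. The cells were C57/Bl6J postnatal neural stem cells derived from the subventricular zone (SVZ), a neurogenic layer beside the lateral ventricles, and were expanded in culture. One culture group received the vehicle DMSO (control) and the other 1 µM 20HC, an oxysterol, and both were taken 3 days after the growth factors EGF and FGF were withdrawn. The labels name 1 library of each group and no deletion or transgene, and the treatment text of the control library also mentions 20HC, so its group was taken from the title. Cell barcodes carry only the number 1 or 2, which no label ties to a library, so barcode sets 1 and 2 are given side by side without a condition and the treatment was not compared.

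Tcf7l2 encodes a member of the LEF/TCF family, the DNA-binding partners of β-catenin at Wnt target genes. Without β-catenin these factors act with Groucho/TLE corepressors, and in the oligodendrocyte lineage Tcf7l2 is known as a regulator of differentiation that is present for a limited period in newly formed oligodendrocytes. Nkx6-2 encodes an NK-class homeodomain repressor that patterns the ventral neural tube and is known in mature oligodendrocytes, where it bears on the organisation of myelin at the paranodes, and in ventral stem cells of the SVZ. Both genes are also known outside this lineage, Tcf7l2 for example in astrocytes and thalamic neurons.

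The promoter windows of both genes are shown as regulatory sequence of 2 genes that share a high level in one cell class. RefSeq (GRCm38.p6) gave 250 bases before to 50 bases after each start site. The capitals mark the SOX core ATTGTT and the forkhead core TGTTTA in Tcf7l2, and the CCAAT box in Nkx6-2, all on the strand shown.
Tcf7l2, chr19:55741560-55741859, plus strand: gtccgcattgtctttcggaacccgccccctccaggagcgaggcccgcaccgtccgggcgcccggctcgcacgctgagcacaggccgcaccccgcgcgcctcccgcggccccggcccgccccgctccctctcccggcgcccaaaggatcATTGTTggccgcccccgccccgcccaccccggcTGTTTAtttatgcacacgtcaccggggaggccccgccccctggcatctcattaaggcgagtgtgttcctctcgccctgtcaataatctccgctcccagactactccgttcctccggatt
Nkx6-2, chr7:139582748-139583047, minus strand: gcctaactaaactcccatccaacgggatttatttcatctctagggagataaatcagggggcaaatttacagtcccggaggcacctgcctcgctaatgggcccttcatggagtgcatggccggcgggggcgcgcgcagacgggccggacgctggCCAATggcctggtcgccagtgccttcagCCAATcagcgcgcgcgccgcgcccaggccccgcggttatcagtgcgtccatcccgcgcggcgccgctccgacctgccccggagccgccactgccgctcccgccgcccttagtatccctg

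Both windows were rich in G and C, 70% for Tcf7l2 and 66.7% for Nkx6-2, beside a median of 52.67% over 32851 promoter windows of the same length. The motifs searched, on both strands, numbered 6. The SOX core was at position 149 and the forkhead core at position 182 of the Tcf7l2 window, counted from its 5′ end, and 10.7% and 13.4% of all windows held these letters. The CCAAT box lay at positions 154 and 182 of the Nkx6-2 window and was found in 37.4% of all windows. The TCF/LEF core CTTTGA (16% of all windows), the RFX core GTTGCC (12.5%) and the homeodomain core TAATTA (5.29%) were not among the letters of either window. A second Tcf7l2 start site, with the window chr19:55895071-55895370, held none of the 6 motifs. In the GENCODE M21 annotation of GRCm38, Tcf7l2 (ENSMUSG00000024985) spans chr19:55741820-55933654 on the plus strand with 22 transcripts. Of these 12 are coding, with 6 to 15 exons. Nkx6-2 (ENSMUSG00000041309) spans chr7:139579376-139582797 on the minus strand with 2 transcripts, of which 1 is coding, with 3 exons. The kit reads the 3′ ends of transcripts, so neither the start site used nor the isoform of Tcf7l2 is seen in these counts.

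The matrix held 41462326 UMIs (unique molecular identifiers, 1 per captured transcript) from 14685 barcodes, with medians of 2749 UMIs in set 1 and 2763.5 in set 2. After filtering, 13028 cells remained, 9630 of set 1 and 3398 of set 2. Each library is 1 culture with no replicate, so the intervals below are 95% intervals of counting error only. Clustering gave 12 clusters. Clusters 1 (4249 cells) and 2 (2776 cells) were named astrocyte-like and together held 7025 cells (53.9%). Of 14 astrocyte markers all were higher in these cells than in the rest and 13 were at least 2-fold higher, among them Gfap at 5166 against 828.6 counts per 1000000 UMIs (CPM) and Aqp4 at 1149 against 103.3 CPM. The name of cluster 1 is less sure than that of cluster 2. The 10 leading genes of cluster 1 held 1 astrocyte marker (Agt), 1 oligodendrocyte precursor marker and 1 neuroblast marker. Those of cluster 2 held 4 astrocyte markers and 0 of another class. Nkx6-2 was among the variable genes that drew the clusters and Tcf7l2 was not. With both genes left out of the clustering, 7012 cells were astrocyte-like. The 2 barcode sets shared 48 barcode sequences.

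Tcf7l2 was read in 1601 UMIs from 1428 of the kept cells. Its level in astrocyte-like cells was 59.6 CPM (interval 56.3 to 62.9, 1277 UMIs), 58.95 in barcode set 1 and 61.2 in set 2. In all other kept cells together it was 19.2 CPM (17.1 to 21.4), 17.5 in set 1 and 23.95 in set 2. The 2 sets lay close together in the astrocyte-like cells, and each was above both values of the other cells. The ratio was 3.11 (2.75 to 3.52), or 1.42 as a log2 ratio of CPM + 5. It was 1.84 with no cell filter and 1.84 with each set clustered alone, settings in which 23.4% and 22.2% of cells were astrocyte-like. Microglia-like cells followed at 37.0 CPM (14.9 to 76.3), with only 7 UMIs from 36 cells. A group of 4 levels then lay close together, 31.6 CPM in neural stem or progenitor-like cells, 31.1 in oligodendrocyte precursor-like (OPC-like) cells, 29.2 in ependymal-like cells and 28.1 in the unnamed clusters 8 and 9. The lowest levels were those of fibroblast-like cells at 16.4, neuroblast-like cells at 14.2 (10.6 to 18.5) and cycling-like cells at 12.9 CPM (10.4 to 16.0). No pair of neighbours in this order differed beyond counting error. Over wider steps, OPC-like cells were at 2.20-fold (1.52 to 3.20) the level of neuroblast-like cells, 1.58-fold (0.988 to 2.52) in set 1 and 4.12-fold (2.03 to 9.03) in set 2. Astrocyte-like cells were at 1.91-fold (1.505 to 2.47) the level of OPC-like cells.

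**Figure D1:**
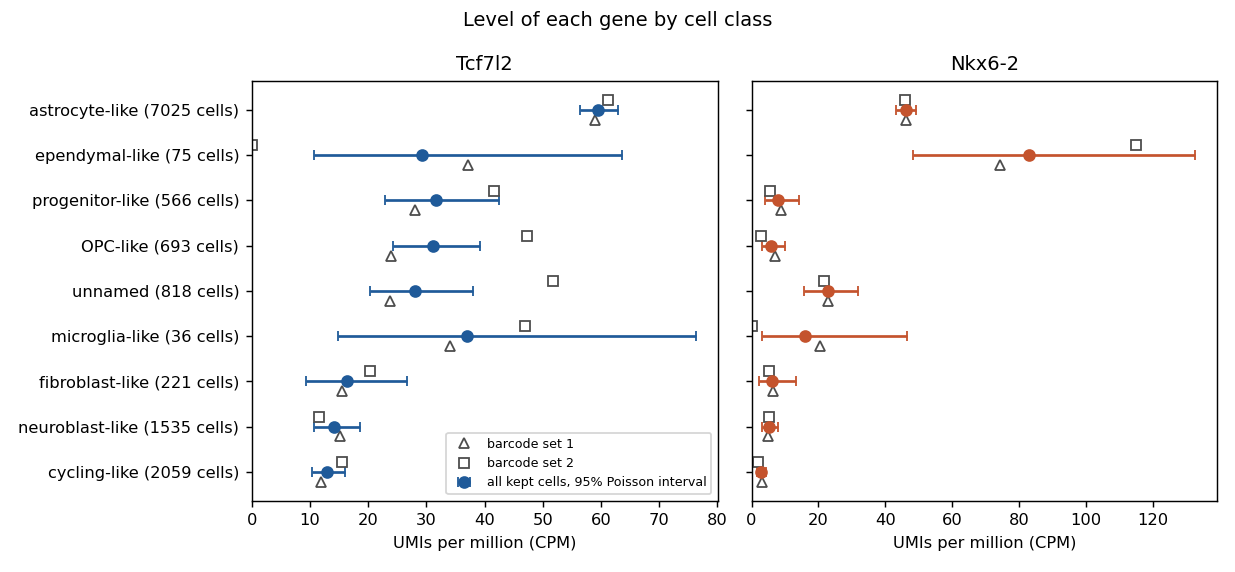
Level of Tcf7l2 (left) and Nkx6-2 (right) in CPM on the x axis for each cell class on the y axis, where filled points are all kept cells with 95% Poisson intervals and open symbols are the 2 barcode sets. Tcf7l2 is highest in astrocyte-like cells at 59.6 CPM, with a spread of lower levels elsewhere, while Nkx6-2 is at 82.8 CPM in ependymal-like cells, 46.1 CPM in astrocyte-like cells and under 8 CPM in 5 classes.

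Nkx6-2 was read in 1110 UMIs from 884 kept cells. Astrocyte-like cells held 988 of these UMIs, a level of 46.1 CPM (43.2 to 49.0), with 46.1 CPM in set 1 and 46.0 CPM in set 2. The other cells together were at 7.22 CPM (5.997 to 8.62), 7.89 in set 1 and 5.37 in set 2. Within each group the sets differed by less than counting error, and the ratio was 6.38 (5.28 to 7.77), a log2 ratio of 2.06. It was 2.18 with no cell filter (49.1 against 22.6 CPM) and 2.31 with each set clustered alone (51.1 against 22.1 CPM). The astrocyte-like level was not the highest: the 75 ependymal-like cells, which carry motile-cilium transcripts, were at 82.8 CPM (48.2 to 132.6), 1.80-fold (1.04 to 2.89) above it. That value rests on 17 UMIs from 12 cells, 74.2 CPM in set 1 and 114.8 CPM in set 2. Below the astrocyte-like class came the unnamed clusters at 22.7 CPM and microglia-like cells at 15.9 CPM, the latter from 3 UMIs of a single cell. Neural stem or progenitor-like cells at 7.91, fibroblast-like at 6.16, OPC-like at 5.78, neuroblast-like at 5.08 and cycling-like cells at 2.86 CPM made up the low end. In that order the ependymal-like and astrocyte-like levels differed from the next level below beyond counting error, and the later neighbours did not.

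The annotation places the 3′ end of Nkx6-2 over that of Inpp5a, an inositol phosphatase gene on the plus strand (chr7:139389109-139579652). No source at hand says whether counting used strand, and without it reads of the overlap cannot be assigned to one gene. Inpp5a was itself at 20.2 CPM (18.4 to 22.2) in astrocyte-like cells and 4.50 CPM (3.54 to 5.63) in the others. Its part in the Nkx6-2 values was not tested. In cluster 1 and cluster 2, Inpp5a was at 20.5 and 19.8 CPM, while Nkx6-2 was at 40.9 and 53.9 CPM.

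The comparison level differed between dividing and other cells. A UMI of Mki67, Top2a, Cdk1, Ube2c or Cenpf, genes of mitosis, was found in 3735 of the 6003 cells outside the astrocyte-like class. Among cells outside the astrocyte-like class, those with such a UMI were at 15.8 CPM of Tcf7l2 and those without at 26.6 CPM, and Nkx6-2 was at 4.21 and 13.9 CPM. Within the astrocyte-like class 14.4% of cells had one. There Tcf7l2 was at 54.8 CPM with and 60.5 CPM without it (ratio 0.907, 0.773 to 1.06), and Nkx6-2 at 42.7 and 46.7 CPM (0.913, 0.761 to 1.09). Between cells without a mitotic UMI, the astrocyte-like level was 2.27-fold (1.90 to 2.73) the level of the others for Tcf7l2 and 3.37-fold (2.65 to 4.34) for Nkx6-2.

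The UMIs found outside the astrocyte-like class were set beside those of Gfap, the astrocyte intermediate filament, because RNA released from broken cells reaches all droplets. Gfap itself was read in 62.6% of neuroblast-like and 67.4% of fibroblast-like cells. For each 1000 Gfap UMIs, astrocyte-like cells held 8.92 UMIs of Nkx6-2. Cycling-like cells held 6.69, neuroblast-like 8.12, unnamed 8.13, OPC-like 8.26 and progenitor-like cells 6.04. Fibroblast-like cells held 11.9 (4.35 to 25.8) and microglia-like cells 22.6 (4.65 to 65.9), the latter from 3 UMIs. In 7 of the 8 other classes the interval held the astrocyte-like ratio, and only ependymal-like cells, at 28.1 (16.4 to 45.0), lay above it. With Clu in place of Gfap the interval held it in 6 of 8 classes, with Aldoc in 5 and with Apoe in 4. With Clu it lay above in ependymal-like and microglia-like cells. With Aldoc it lay below in cycling-like, unnamed and progenitor-like cells and above in no class. With Apoe it lay above in ependymal-like cells and below in cycling-like, progenitor-like and microglia-like cells. Nkx6-2 was seen in 1.73% of OPC-like cells (median depth 3092 UMIs) and in 2.26% of fibroblast-like cells (median 4211), a class outside the neural lineage. The OPC-like share (interval 0.898 to 3.01%) was not above that of the fibroblast-like cells (0.739 to 5.20%), whose depth differed. Whether it reflects expression in OPC-like cells was not tested. The ratio of Tcf7l2 varied more. It stood at 11.5 UMIs for each 1000 of Gfap in astrocyte-like cells and at 44.5 (34.7 to 56.2) in OPC-like, 30.3 in cycling-like, 24.1 in progenitor-like and 22.6 in neuroblast-like cells. In 6 of the 8 other classes the interval lay wholly above the astrocyte-like ratio. With Clu or Aldoc as reference it lay above in the same number, and with Apoe in 4. It lay below in unnamed and ependymal-like cells with Aldoc and in unnamed and microglia-like cells with Apoe. The part of free RNA in these values was not tested.

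**Figure D2:**
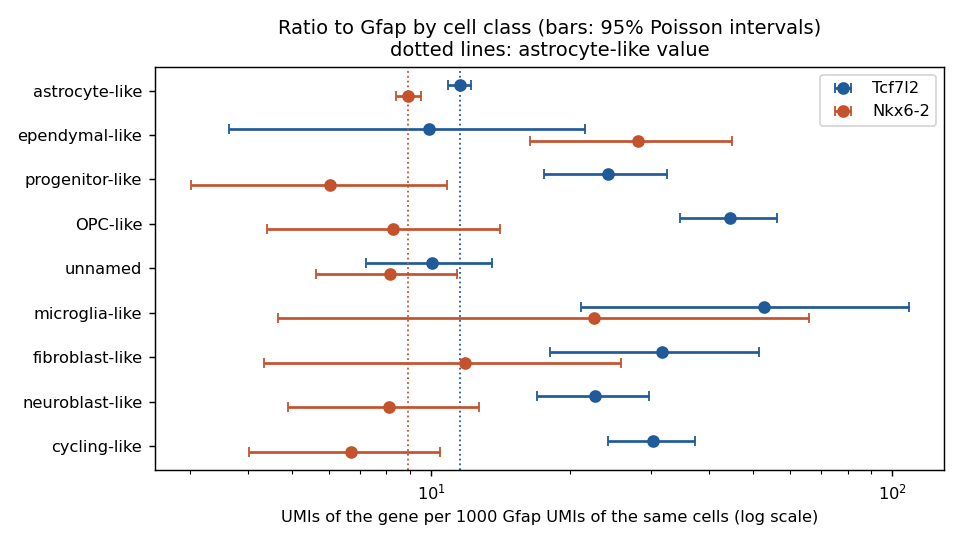
UMIs of Tcf7l2 (blue) and Nkx6-2 (red) for each 1000 Gfap UMIs of the same cells (x axis, log scale) by cell class (y axis), with 95% Poisson intervals and dotted lines at the astrocyte-like values of 11.5 and 8.92. The interval of Nkx6-2 holds its line in every other class but the ependymal-like one, with a wide interval in microglia-like cells, whereas Tcf7l2 lies to the right of its line in 6 of 8 classes.

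Inside the astrocyte-like class, the Gfap- and Aldoc-led cluster 2 was set against cluster 1, led by Pcp4, Agt and Gria1. Nkx6-2 was at 53.9 CPM (49.1 to 59.1) in cluster 2 and 40.9 CPM (37.5 to 44.6) in cluster 1, a ratio of 1.32 (1.16 to 1.49). The ratio was 1.28 (1.11 to 1.49) in set 1 and 1.41 (1.10 to 1.81) in set 2. Tcf7l2 was at 63.8 CPM (58.5 to 69.4) and 56.8 CPM (52.7 to 61.0), a ratio of 1.12 (1.004 to 1.26), with intervals that held 1 in each set alone. Neither ratio reached 1.5.

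A UMI of Tcf7l2 was found in 1121 of the 7025 astrocyte-like cells, 15.96% (15.1 to 16.8), and in 5.11% of the others. With every cell thinned to 1500 UMIs, which left out 532 shallower astrocyte-like cells and 738 of the others, the shares were 8.05% and 2.47%. For Nkx6-2 the shares were 11.1% (10.3 to 11.8) in 777 cells and 1.78%, and thinned 6.35% and 0.779%. The share with Tcf7l2 was near that of an even spread, since 16.4% of the astrocyte-like cells would have held one had each cell the class level at its own depth. Those of Nkx6-2 were gathered in fewer cells than such a spread gives, 11.1% against 13.0%. Astrocyte-like cells with 1, 2, 3 and at least 4 UMIs of Nkx6-2 numbered 619, 122, 24 and 12, and of Tcf7l2 984, 120, 15 and 2. Over 4 groups of astrocyte-like cells of rising depth, Nkx6-2 was at 45.9, 46.4, 45.3 and 46.6 CPM and Tcf7l2 at 68.5, 56.6, 54.8 and 61.3 CPM. Only the outer levels were compared with each other, and they did not differ beyond counting error for either gene.

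Both genes were seen together in 131 of the 7025 astrocyte-like cells, 1.86% (1.56 to 2.21), and the product of the single shares was 1.76%. Thinned, the values were 38 of 6493 cells, 0.585% (0.414 to 0.802), and 0.511%. Of the cells with Nkx6-2, 16.9% held Tcf7l2, beside 15.8% of the others of the class. In the class as a whole 25.2% of cells had a UMI of either gene.

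The 2 genes differed when the astrocyte-like cells were divided by ependymal markers, a split chosen after their levels were seen. The list of 8 held Foxj1, the master factor of motile cilia, Rsph1, Tmem212, Ccdc153, Dynlrb2, Pifo, 1110017D15Rik and Mia. Its summed level was 283.7 CPM in astrocyte-like cells and 3906 CPM in ependymal-like cells. Nkx6-2 was at 41.2 CPM (37.4 to 45.3) in the 3560 cells with no such UMI, 48.5 CPM (44.1 to 53.3) in the 2847 with 1 or 2, and 58.5 CPM (48.8 to 69.5) in the 618 with at least 3. The outer levels differed by 1.42-fold (1.16 to 1.73), 1.41-fold (1.10 to 1.78) in set 1 and 1.46-fold (0.985 to 2.13) in set 2. Tcf7l2 was at 63.6, 55.9 and 55.8 CPM (ratio 0.877, 0.717 to 1.06), a difference within counting error. Cells with more ependymal-marker UMIs were also deeper, with median depths of 2834.5, 3084 and 3369 UMIs. In cells thinned to 1500 UMIs, Nkx6-2 was at 46.7, 48.3 and 63.5 CPM (34.7 to 106.5 in the last group, 147 cells), and there the intervals overlapped.

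Sub-clusters of the astrocyte-like cells, drawn without the 2 genes and without the genes of the lists below, also had different levels of the 2 genes. Of the 7 sub-clusters, the one with the cilium-related genes Pifo, Fam183b and Capsl among its leading genes (967 cells) had the highest Nkx6-2 level, 67.7 CPM (58.9 to 77.4), with 67.7 CPM in set 1 and 67.6 CPM in set 2. Its ependymal-marker sum was 581.3 CPM, against 145.7 to 251.0 CPM in the other 6, and the markers of that list took part in drawing it. Foxj1 was read in all 7. It was followed by the sub-cluster led by Crym and Slco1c1 (855 cells) at 61.2 CPM (51.7 to 72.0), whose ependymal-marker sum was 228.2 CPM. The lowest Nkx6-2 level was that of the sub-cluster led by Agt, Arxes1 and Hpgd (1604 cells), 29.0 CPM (24.5 to 34.2), 28.7 in set 1 and 29.9 in set 2. Tcf7l2 had another order. It was highest in the sub-cluster led by Gfap, Pax6 and Serpinb1a (1570 cells), 74.96 CPM (67.6 to 82.9), 74.0 in set 1 and 77.9 in set 2. It was lowest in the Crym-led and the Pifo-led sub-clusters, 44.5 CPM (36.4 to 53.8) and 45.6 CPM (38.5 to 53.8). At this resolution the 2 sub-clusters with most Nkx6-2 had the least Tcf7l2, with intervals that overlapped those of other sub-clusters, such as the Stmn4-led one at 53.9 CPM (45.0 to 64.1). In the Agt-led sub-cluster, with the least Nkx6-2, Tcf7l2 was at 60.4 CPM.

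**Figure D3:**
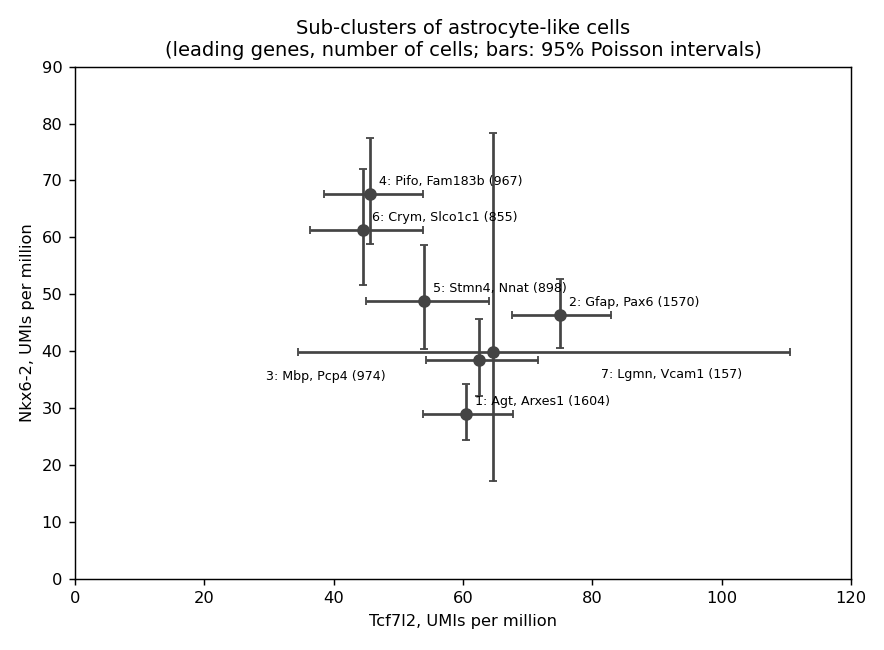
Tcf7l2 (x axis) and Nkx6-2 (y axis) in CPM in the 7 sub-clusters of astrocyte-like cells, each named by its leading genes and number of cells, with 95% Poisson intervals. The Pifo-led and Crym-led sub-clusters lie at the upper left, at 67.7 and 61.2 CPM of Nkx6-2, and the Gfap-led one at the far right, at 74.96 CPM of Tcf7l2.

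The order depended on how finely the class was divided. With 4 sub-clusters (resolution 0.5), Nkx6-2 was at 39.5, 54.7 and 42.6 CPM in sub-clusters of 3338, 2795 and 853 cells, none led by cilium genes, and at 62.2 CPM (31.1 to 111.3) in one of 39 cells. The sub-cluster with 54.7 CPM of Nkx6-2 then also had the most Tcf7l2, 63.1 CPM. With 13 (resolution 1.2), Nkx6-2 ran from 25.7 CPM in an Agt-led to 73.4 CPM in a Pifo-led sub-cluster. Tcf7l2 ran from 37.3 to 78.2 CPM there with a Gfap-led one again highest. The Pifo-led and Crym-led sub-clusters again had the most Nkx6-2, and their Tcf7l2 levels of 51.5 and 46.6 CPM were above the 2 lowest, 37.3 and 39.5 CPM.

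By Gfap itself, Tcf7l2 was at 49.7 CPM in the 520 astrocyte-like cells with no Gfap UMI, 53.9 with 1 to 4, 56.7 with 5 to 14 and 66.1 CPM with at least 15. The outer levels differed by 1.33-fold (1.03 to 1.74). Nkx6-2 was at 38.4, 38.3, 54.2 and 47.6 CPM, and its outer levels had a ratio of 1.24 (0.925 to 1.69). Between the middle groups, 5 to 14 over 1 to 4 Gfap UMIs, the ratio was 1.42 (1.18 to 1.70) for Nkx6-2. For Tcf7l2 the same step was 1.05 (0.893 to 1.24). By the share of mitochondrial UMIs, Tcf7l2 was at 46.9 CPM in cells under 2% and 66.3 CPM in cells of 6 to 10% (ratio 1.41, 1.05 to 1.93). Nkx6-2 ran against it, from 54.6 to 38.4 CPM (0.703, 0.521 to 0.958). The part of cell quality in either trend was not tested.

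OPC-like cells, the class nearest to the known lineage of both genes, were examined for how the 2 genes varied there. Tcf7l2 was at 23.8 CPM (16.8 to 32.9, 37 UMIs) in set 1 and 47.3 CPM (32.5 to 66.4, 33 UMIs) in set 2, a ratio of 0.504 (0.307 to 0.832). Of the 9 classes, the unnamed cells were the other one whose set interval left out 1, at 23.8 against 51.7 CPM (0.459, 0.228 to 0.985). They pool cluster 8, with 462 cells of set 1 and 34 of set 2, and cluster 9, with 249 and 73. Tcf7l2 was at 16.0 CPM in cluster 8 and 36.8 CPM in cluster 9. The part of this mix in the set difference was not tested. All cells outside the astrocyte-like class together had a set ratio of 0.729 (0.576 to 0.928). In set 2 the astrocyte-like level was 1.30-fold (0.905 to 1.91) the OPC-like level, and in set 1 2.47-fold (1.78 to 3.53), so in set 2 alone the levels of the 2 classes lay within counting error of each other. OPC-like cells with a UMI of the committed-precursor genes Gpr17, Bcas1, Enpp6 or Myrf and none of Pdgfra or Cspg4 were at 37.4 CPM. Those with Pdgfra or Cspg4, the markers of early precursors, and none of the former were at 24.9 CPM (ratio 1.503, 0.639 to 3.92). The 60 OPC-like cells with at least 3 UMIs of myelin genes were at 47.1 CPM and the other 633 at 29.3 CPM (1.61, 0.762 to 3.09). Both differences were within counting error. Only 10 kept cells had at least 10 myelin UMIs, with 1 UMI of Tcf7l2 and none of Nkx6-2 among them, so mature oligodendrocytes gave no level for either gene.

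The other genes of these pathways were counted by 1 rule. A gene with at least 30 UMIs was called higher or lower in astrocyte-like cells when its CPM differed from that of all other kept cells by at least 1.5-fold, over all cells and in each barcode set, with the other level outside its Poisson interval. Of the 13037 genes measured, 31.8% were called higher and 16.9% lower, 48.7% in all, and the median log2 ratio was 0.16. A larger log2 ratio than that of Tcf7l2 was seen for 509 genes, and than that of Nkx6-2 for 105. Both were called higher, which follows from how they were chosen. The lists were drawn up with results of these data known. Over all 7 lists, 22 of 87 measured genes were called higher, 25.3%, and 27 lower, 31.0%. The share called lower was above that of all genes, here and in every alternative run. The share called higher was below that of all genes here, but above it with no cell filter (17.2% against 9.11%), with each set clustered alone (9.2% against 8.08%) and in set 2 alone (38.9% against 38.3%). Without cycling-like cells, and likewise without all cells with a mitotic UMI, 14 list genes were called higher. Without the 221 fibroblast-like cells, an alternative added after the data were seen, 24 of 84 measured list genes were higher and 22 lower, beside 33.7% and 15.8% of all genes.

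Among the LEF/TCF factors and their cofactors, 3 of 13 measured genes were called higher, 1 lower and 9 neither (median log2 ratio 0.23). The factors differed among themselves. Tcf7l1, a LEF/TCF member known mainly as a repressor, was at 23.4 CPM (21.4 to 25.6) in astrocyte-like cells, 22.0 in set 1 and 27.3 in set 2, and at 6.39 CPM in the others. Lef1 had 2 UMIs in astrocyte-like cells, 0.093 CPM, against 3.08 CPM elsewhere, and Tcf7 had only 13 UMIs in all. The corepressor Tle3 (41.3 against 24.4 CPM) was called higher, as was Ctnnbip1, which blocks binding of β-catenin to TCF factors (31.6 against 16.6 CPM). Ependymal-like cells were at 73.1 CPM of Tle3 and 24.4 CPM of Tcf7l1. Ctnnb1, encoding β-catenin, was at 163.4 and 134.7 CPM and was not called, nor were Aes (77.3 and 76.2 CPM), Chd8 (71.7 and 60.6 CPM) and Tle1 (37.1 and 37.0 CPM).

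Wnt ligands, receptors and modulators had 12 of 24 measured genes called higher, 3 lower and 9 neither (median log2 ratio 0.48). Daam2, a formin that modulates Wnt signalling in glia, was at 68.6 CPM in astrocyte-like cells and 7.93 CPM in the others. Among ligands, Wnt7b was at 105.3 against 45.5 CPM, Wnt5a at 24.9 against 7.99, Wnt5b at 19.8 against 2.96 and Wnt7a at 10.1 against 4.74 CPM. Rspo3, an agonist, was at 2.89 against 0.710 CPM. Of the Frizzled receptors Fzd2 (36.8 against 19.1 CPM), Fzd3 (32.7 against 15.9 CPM) and Fzd8 (5.46 against 2.25 CPM) were called higher, together with Lgr4, a receptor of R-spondins (2.80 against 1.60 CPM). The secreted modulators Sfrp5 (7.28 against 0.651 CPM) and Dkk3 (35.1 against 15.3 CPM) were higher as well. Of these genes Daam2, Wnt5b, Wnt7a, Fzd3 and Sfrp5 were highest in astrocyte-like cells, and the others in another class. Wnt7b was at 160.7 CPM in ependymal-like and 135.1 in progenitor-like cells, and Dkk3 at 190.0 in ependymal-like cells. Fibroblast-like cells were at 37.0 CPM of Wnt5a, 81.1 of Fzd2 and 16.4 of Lgr4. Rspo3 (4.87 CPM, ependymal-like) and Fzd8 (6.02 CPM, unnamed) were low throughout. Wnt4 (2.57 against 6.87 CPM), the receptor Ror2 (0.093 against 1.72 CPM) and the antagonist Dkk2 (0.187 against 3.43 CPM) were lower. These 3 were highest in fibroblast-like cells, at 55.4, 16.4 and 54.4 CPM. Without those cells Wnt4 was at 2.57 against 3.89 CPM and not called, and Ror2 and Dkk2 were left with 15 and 9 UMIs, too few to be measured. Ryk, at 50.2 and 36.2 CPM, was not called.

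Of the β-catenin destruction complex and its regulators, 1 of 11 genes was higher (Dvl1, at 14.5 against 7.93 CPM), Dvl2 was lower at 9.98 against 18.1 CPM, and 9 were neither (median log2 ratio 0.24). Csnk1a1 was at 126.3 and 107.7 CPM, Gsk3b at 86.9 and 74.8 CPM, Apc at 88.2 and 60.1 CPM and the tankyrase Tnks2 at 31.6 and 21.0 CPM. Genes widely used as readouts of Wnt/β-catenin signalling gave 1 higher, 4 lower and 4 neither of 9 measured, with a median log2 ratio of -0.18. Axin2, the most used of them, was at 6.72 CPM (5.66 to 7.91) in astrocyte-like cells and 12.3 CPM in the others, 6.23 against 11.6 in set 1 and 8.05 against 14.1 in set 2. Fibroblast-like cells were at 46.2 CPM of Axin2, and without them the other cells were at 10.2 CPM and Axin2 was not called. Nkd1 (1.49 against 3.85 CPM), Lef1 and Ccnd1 (52.0 against 189.8 CPM) were also lower. Ccnd1, which encodes cyclin D1 of the cell cycle, was at 755.0 CPM in OPC-like, 218.5 in progenitor-like and 125.3 in neuroblast-like cells, and in cycling-like cells at 62.6 CPM, near the astrocyte-like level. Notum, a secreted Wnt inhibitor, was higher at a low level (1.31 against 0.533 CPM). Myc (5.04 and 5.33 CPM) and Znrf3 (2.89 and 3.14 CPM) were not called.

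**Figure D4:**
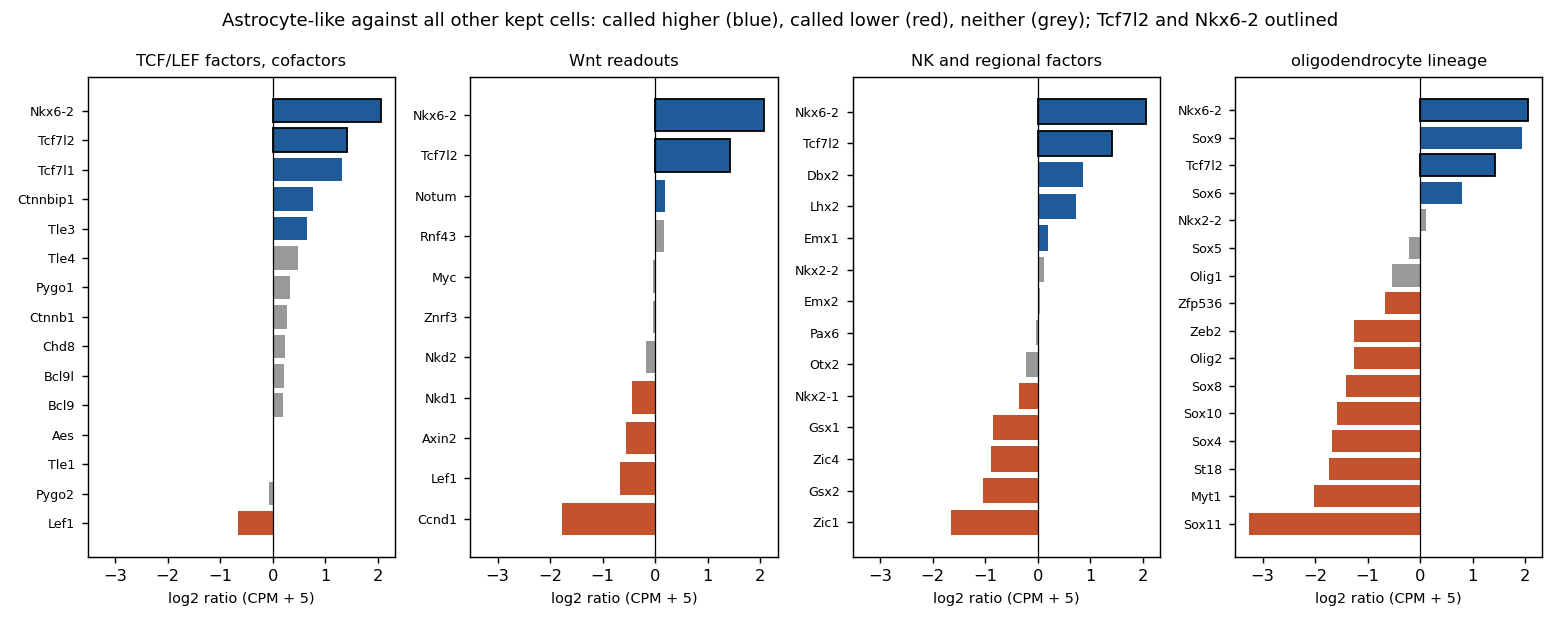
Log2 ratio of CPM + 5 between astrocyte-like and all other kept cells (x axis) for measured genes of 4 lists (y axis), called higher in blue, lower in red and neither in grey, with Tcf7l2 and Nkx6-2 outlined in each panel. In the oligodendrocyte lineage panel most of the genes drawn are called lower and of the list only Sox9 and Sox6 higher, while Tcf7l2 and Nkx6-2 stand at 1.42 and 2.06.

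The relatives of Nkx6-2 were nearly absent: Nkx6-1 had 1 UMI and Nkx6-3 none in the kept cells. Of the NK homeodomain and regional forebrain factors, 3 of 13 measured genes were called higher, 6 lower and 4 neither (median log2 ratio -0.22). Dbx2, a homeodomain factor of intermediate neural tube domains, was at 117.7 against 62.3 CPM, Lhx2 at 50.1 against 28.3 CPM and Emx1 at 1.54 against 0.710 CPM. Progenitor-like cells were at 138.0 CPM of Dbx2 and 50.3 of Lhx2, and OPC-like cells at 109.8 CPM of Dbx2. Emx1 was at 19.5 CPM in ependymal-like cells. Nkx2-1 (0.653 against 2.25 CPM), Gsx1, Gsx2 (0.606 against 6.57 CPM), Zic1 (1.03 against 14.03 CPM) and Zic4 (0.233 against 4.68 CPM) were among those lower. Zic1 and Zic4 were at 213.5 and 80.1 CPM in fibroblast-like cells. Without those cells Zic1 was at 1.03 against 1.82 CPM and still called lower. Zic4 had 6 UMIs in all other cells together, most of them astrocyte-like, so the lower call of Zic4 rests on fibroblast-like cells. Pax6 was not called, at 46.6 and 47.6 CPM.

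In the list of oligodendrocyte lineage factors, 10 of 15 measured genes were called lower in astrocyte-like cells, 2 higher and 3 neither, with a median log2 ratio of -1.27. Sox9 (493.8 against 124.2 CPM) and Sox6 (71.9 against 39.5 CPM) were the 2 called higher, as Tcf7l2 and Nkx6-2 were. Sox9 is itself a known astrocyte factor. Sox6 was higher still in OPC-like cells, at 128.9 CPM, unlike Sox9 (81.8 CPM), Tcf7l2 (31.1 CPM) and Nkx6-2 (5.78 CPM). Sox10, the defining factor of the lineage, was at 0.560 CPM in astrocyte-like cells and 11.6 CPM in the others. Olig2 was at 8.39 against 27.2 CPM and Sox8 at 17.9 against 56.3 CPM. Olig1, at 35.4 and 53.4 CPM, did not reach 1.5-fold in set 1 (32.9 and 45.5 CPM) and was not called. Zfp536, Zeb2, St18, Myt1, Sox4 (187.2 against 610.5 CPM) and Sox11 (68.9 against 701.9 CPM) were lower too. None of these was highest in OPC-like cells. Zeb2, St18, Myt1 and Sox11 were highest in neuroblast-like cells, at 177.1, 31.5, 33.4 and 1166 CPM. Zfp536 was highest in fibroblast-like cells (11.3 CPM) and Sox4 in progenitor-like cells (1105 CPM). In OPC-like cells St18 had no UMI, and the others lay above their astrocyte-like levels. Of the 8 known partners of Tcf7l2 in oligodendrocytes, 5 were called lower, 1 higher and 2 neither (median log2 ratio -1.03). The histone deacetylases Hdac1 (28.4 against 66.0 CPM) and Hdac2 (33.3 against 70.7 CPM), Chd7 (60.9 against 173.7 CPM), Zeb2 (53.3 against 134.4 CPM) and Sox10 were lower, and the corepressor Tle3 was higher. In OPC-like cells Hdac1 was at 33.8 CPM, near its astrocyte-like level, with 88.2 CPM in cycling-like and 74.0 CPM in neuroblast-like cells. Hdac2, Chd7, Zeb2 and Sox10 were at 63.5, 166.6, 108.0 and 83.5 CPM in OPC-like cells, above their astrocyte-like levels.

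In OPC-like cells against all others, 5.12% of the 13037 genes were called higher and 15.5% lower, 20.7% in all. There the lineage list had 8 of 15 genes called higher, among them Sox10 (83.5 against 0.554 CPM), Olig1 (304.8 against 27.0 CPM) and Olig2 (115.5 against 10.5 CPM). Nkx6-2 was called lower at 5.78 against 30.4 CPM, and Tcf7l2, at 31.1 and 42.4 CPM, was not called. The other cells here include the astrocyte-like class, for whose level both genes were chosen, so the lower call is no independent finding. Against single classes, Nkx6-2 in OPC-like cells was at 1.14-fold (0.517 to 2.43) the neuroblast-like and 2.02-fold (0.917 to 4.31) the cycling-like level. Both differences were within counting error.

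Between the 2 astrocyte-like clusters, 3.43% of 12029 genes were called higher in cluster 2 and 5.22% lower, 8.65% in all. Neither Tcf7l2 nor Nkx6-2 was among them. Of the regional list 5 of 8 measured genes were called higher: Pax6 at 85.1 against 21.3 CPM, Lhx2 at 64.7 against 40.5 CPM, Emx2 at 16.4 against 10.4 CPM, Emx1 at 3.53 against 0.232 CPM and Otx2 at 3.88 against 0.386 CPM. Nkx2-2 was lower. Of the Wnt list, Sfrp1 (45.9 against 11.8 CPM), Dkk3, Fzd2 and Fzd5 were higher and Wnt5a, Wnt5b (9.89 against 26.3 CPM) and Lrp5 lower. Pax6, Emx1, Sfrp1 and Dkk3 were among the variable genes that drew the clusters, so their difference is no independent finding.

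Astrocyte-like cells with and without a UMI of each gene were then compared after thinning to 1500 UMIs. With Tcf7l2 (523 cells against 5970), 0.999% of 10809 genes were called higher and 0.981% lower, 1.98% in all. Of 65 measured list genes 1 was higher, Wnt5a at 42.1 against 24.9 CPM, and none lower. With Nkx6-2 (412 cells against 6081), 1.14% were called higher and 0.962% lower, 2.1% in all. There Bcl9, a β-catenin cofactor (61.5 against 34.0 CPM), and Ctnnbip1 (48.5 against 26.9 CPM) were higher and Dvl1 lower. At 1 and 3 of 65 list genes, these counts are small. With Tcf7l2 the list share called higher was 1.54%, beside 0.999% of all genes. With Nkx6-2 the list shares were 3.08% higher and 1.54% lower, beside 1.14% and 0.962%. These differences from the background were not tested. Nkx6-2 was at 54.8 CPM in cells with and 46.9 CPM in cells without Tcf7l2, with an interval of 39.7 to 73.8 that held the latter.

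The genes with the closest pattern were ranked by the Pearson correlation of log2(CPM + 5) over the 11 clusters of at least 50 cells, among 9858 genes with at least 200 UMIs. The clusters share libraries and depth, so the values are a description. Among the 8 closest to Tcf7l2 were Abcd3 (0.987), a peroxisomal transporter, Arap2 (0.980), Tmem229a, Tmem198b, Paqr4, Bcan, a brain proteoglycan, and Zhx1 (0.963). Among the 8 closest to Nkx6-2 were Naaa (0.988), Nme5, Smpdl3a, Drc1, Entpd5, Fam131a and Tppp3 (0.975). Drc1 encodes a part of the motile cilium and was highest in the ependymal-like cluster, at 170.5 CPM. By rank correlation, 3 of the 8 genes closest to Tcf7l2 and 1 of those closest to Nkx6-2 stayed among the 8 closest. Tcf7l2 and Nkx6-2 had a correlation of 0.684 with each other, and Nkx6-2 was at rank 1607 among the genes closest to Tcf7l2.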

How the data were processed

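The authors deposited whole UMI counts per gene and barcode. Per the labels' protocols the kit was 10x Chromium Single Cell 3′ v1, and per the submitters' processing notes the software was Cell Ranger 2.1.1 with mm10. Barcode numbers were not tied to libraries, so the matrix was treated as 1 sample.

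Left out were 635 barcodes with under 500 genes and 912 with over 10% mitochondrial UMIs, 1407 in all. Scrublet in scanpy 1.11.5, run per set, removed 239 of 9869 cells (2.42%; 7.9% expected) and 11 of 3409 (0.323%; 2.73% expected). Remaining doublets were not measured. Clustering used log values at 10000 UMIs per cell, 2000 variable genes, 30 components, 15 neighbours and Leiden resolution 0.5 (0.8 for sub-clusters), in Python 3.11.15 with leidenalg 0.10.2 and igraph 0.11.9. Clusters took a name from 14 marker lists, needing 3 markers that were 2-fold higher. The lists of committed precursor, myelinating oligodendrocyte, endothelial, pericyte, choroid plexus and erythroid markers matched no cluster.

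Levels are summed UMIs as CPM with exact Poisson intervals, shares have Clopper-Pearson and ratios exact conditional intervals, all at 95%. With 1 sample no p-value was computed. The 2 genes, the 7 lists (112 genes) and the comparisons were chosen with earlier results of these data known. Named were both genes, the 4 genes with most UMIs and all called genes of each list in the astrocyte-like comparison, and the 8 genes closest to each. Some genes that this rule takes are counted but not reported here by name or drawn. Inpp5a, Olig1 and genes named in other comparisons were chosen after their values were seen. The call rule was first run with the 1.5-fold limit over all cells and only the direction in each set. It was then corrected to the planned rule, 1.5-fold in each set, and the first form is kept as an alternative. The rule was tested on simulated counts. Cell filter, doublets, clustering, classing, comparison cells, depth, scaling, added CPM and barcode set were varied.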

Additional observations from a re-analysis of the deposited data

Results flagged for a closer look

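Signal of both genes was present in barcodes that the comparisons do not use, above the level that 3 UMIs would give in them. In the 912 barcodes with over 10% mitochondrial UMIs, Tcf7l2 was at 62.5 CPM (50.7 to 76.2) and Nkx6-2 at 24.2 CPM (17.1 to 33.3), where 3 UMIs give 1.91 CPM. In the 635 barcodes with under 500 genes, Tcf7l2 was at 20.1 CPM and Nkx6-2 at 16.7 CPM, from 12 and 10 UMIs, where 3 UMIs give 5.02 CPM. In the 250 barcodes called doublets, Tcf7l2 was at 49.4 CPM and Nkx6-2 at 25.2 CPM, where 3 UMIs give 2.80 CPM.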

How the results depend on the processing

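The log2 ratio of astrocyte-like to other cells kept its direction in 22 of 22 alternatives for each gene and left its interval in 8 for each. For Tcf7l2 (1.42) it was 0.80 with no cell filter and 0.80 with each set clustered alone, 1.05 without cells with a mitotic UMI, 1.19 without cycling-like cells, 1.19 in set 2 alone, 1.24 at resolution 1.0, 1.24 with cells classed by marker UMIs and 1.59 with 1 CPM added. For Nkx6-2 (2.06) it was 0.97 with no filter, 1.05 with each set clustered alone, 1.46 without mitotic cells, 1.67 at resolution 1.0, 1.76 without cycling-like cells, 2.33 thinned, 2.35 with a stricter filter and 2.52 with 1 CPM added. With no filter and with sets clustered alone, 23.4% and 22.2% of cells were named astrocyte-like, and 42.9% and 42.3% of all calls were higher calls, beside 65.3%. List genes called higher (22) were 14 without cycling-like cells, 14 without mitotic cells, 8 with sets clustered alone and 11 at 2-fold, and 30 with the fold required over all cells only. Those called lower (27) ran from 19 to 33. The share of cells with both genes (1.86%) was 0.585% thinned, and scaling does not bear on it. The ependymal-marker split, chosen after the levels were seen, kept its direction for Nkx6-2 in 17 of 17 alternatives (0.38 to 0.75). Of these, the ones without unnamed clusters and without cycling-like cells leave the astrocyte-like cells as they were and could not move it. Its interval took in both directions in thinned cells (-0.44 to 1.21) and in set 2 alone (-0.02 to 1.09). For Tcf7l2 (-0.19) the split ran from -0.78, thinned, to 0.03. The cause of these moves was not tested. The comparisons without ependymal-like and without fibroblast-like cells, the sub-cluster resolutions and the fold over all cells were chosen after seeing the data. No paired analysis was possible because each group has 1 library and barcodes are not tied to libraries. Classes of 75 and 36 cells hold few UMIs of either gene, which limits their levels.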
